A study of Mus musculus with 4 samples.

Results

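Ribosomal protein genes encode the protein part of the cytosolic ribosome, and they were identified on the fetal liver arrays as every gene whose symbol is Rpl or Rps with a number, together with Rplp0, Rplp1, Rplp2 and Rpsa. By this rule, 84 of the 22911 genes with a named probe were included, 52 of the large subunit and 32 of the small subunit, covered by 143 of 56605 probes. Kinases named Rps6k and the pseudogenes named -ps were left out, and each gene was described by its brightest probe. The rule used symbols alone, so no expression value chose the genes.

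The liver RNA came from mid-gestation fetuses of C57BL/6J mice whose dams were given one of 2 diets during gestation. The control diet (CD) held 4.3% and the high-fat diet (HFD) 60% of its energy as fat. No genetic change is given for either group, and each was measured on 2 single-colour arrays, CD 1 and CD 2 from fetuses of CD-fed dams and HFD 1 and HFD 2 from fetuses of HFD-fed dams. The sources used here give neither the number of fetuses or dams behind an array nor whether the arrays of one diet came from different litters, so p-values measure the spread between these 4 arrays only. The labels call every sample female without saying whether this refers to the dam or to the fetus.

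A ribosome joins a large subunit, which forms the peptide bonds, to a small subunit, which reads the mRNA, and each is built from ribosomal RNA and many proteins needed in matching amounts. The mRNAs of these proteins typically begin with a cytosine and a run of pyrimidines, the 5′ terminal oligopyrimidine (TOP) sequence, through which mTORC1 and LARP1 control their translation as a group. The fetal liver is at once a growing gland and the main site of red cell formation, and red cell precursors are the cells most affected when a ribosomal protein gene is lost in Diamond-Blackfan anemia.

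The start sites of 6 of these genes are shown because the TOP sequence is the feature that the family shares at the level of mRNA. Each stretch runs from 60 bases before to 20 bases from the annotated RefSeq start on build GRCm38.p6, with the pyrimidine run at the start in capitals. The 6 were those among the genes named by rule below whose annotated start was a C followed by at least 4 pyrimidines.
Rps6 (chr4:86857348-86857427, minus strand): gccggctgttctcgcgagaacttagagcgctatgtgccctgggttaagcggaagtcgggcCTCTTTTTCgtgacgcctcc
Rps10 (chr17:27635225-27635304, minus strand): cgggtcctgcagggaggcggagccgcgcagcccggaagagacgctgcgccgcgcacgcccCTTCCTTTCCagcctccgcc
Rps27 (chr3:90213629-90213708, minus strand): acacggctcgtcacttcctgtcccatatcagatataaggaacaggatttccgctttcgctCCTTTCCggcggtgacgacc
Rpl15 (chr14:18270967-18271046, minus strand): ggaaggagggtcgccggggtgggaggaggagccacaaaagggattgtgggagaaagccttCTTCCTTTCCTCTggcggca
Rpl28 (chr7:4792905-4792984, plus strand): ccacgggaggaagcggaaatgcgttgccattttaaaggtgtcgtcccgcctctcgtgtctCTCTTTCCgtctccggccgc
Rplp2 (chr7:141447591-141447670, plus strand): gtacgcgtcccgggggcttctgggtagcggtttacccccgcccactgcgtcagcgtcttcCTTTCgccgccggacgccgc

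Promoter windows were found for 63 of the 84 genes. A start of this kind was held by 14 of their 75 annotated starts, 18.7%, against 2.51% of the 32851 starts of all genes. In windows of 300 bases (250 before to 50 after the start), searched on both strands, CTTTCC was held by 49.3% of the ribosomal protein windows against 26.6% of all windows. The longer CTCTTTCC, which contains it, was held by 17.3% against 3.12%. CCGGAAG, the core letters bound by ETS family factors, was held by 34.7% against 8.86%, and AAGATGGC, the core letters bound by YY1, by 10.7% against 2.75%. TATAAA was held by 10.7% of the ribosomal protein windows against 13.6% of all windows. These matches describe letters in the windows and no binding was measured. An annotated start that lies a few bases from the true one is not counted as a TOP start.

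The array's intensities give levels relative to the other genes on the same array. A level is the log2 of the intensity minus the 75th percentile of that array, so that 0 is that percentile. The median intensity lay between 70.2 and 120.5, both of them CD arrays, 65.4% to 70.0% of spots were well above background, and no spot was saturated. Of the marker lists, all 14 hepatoblast genes, including Afp and Alb, and all 13 erythroid genes with a probe were well above background on the 4 arrays. The summed level of the hepatoblast list was 10.99 to 11.59 on the CD arrays and 11.26 to 11.28 on the HFD arrays, and that of the erythroid list 10.90 to 11.18 and 11.05 to 11.23. Of the 15 placenta genes with a probe (trophoblast and decidua), 9 had such a signal on each array and 2 on none, with a summed level of 6.75 to 7.06 on the CD and 6.49 to 6.74 on the HFD arrays. Gene by gene, the 9 placenta genes tested had a median log2 fold change (HFD minus CD) of -0.92, with 8 of 9 lower. This median was -1.64 without CD 1 and -0.61 without CD 2. With all arrays, 4 of the 9 were lower past an unadjusted limma p of 0.05 and a 2-fold change, where 0.478% of all genes were. The placenta list includes Tpbpa, Prl8a6, Prl8a9 and Psg21, which the study reported among its most lowered genes on these same arrays. That count is therefore no independent result. The median was -0.68 over 10 neuron genes (-0.44 without CD 1, -0.91 without CD 2). Over 7 gonad and kidney genes it was 0.70 (1.28 without CD 1, 0.16 without CD 2). The gonad and kidney list likewise includes Cdh16 and Cyp11a1, which the study reported among its most raised genes on these arrays. Over 8 skeletal muscle genes the median was -0.19, but 0.16 without CD 1 and -0.54 without CD 2, so its sign depended on the CD array. In bulk tissue, fewer cells of a type and less RNA per cell cannot be told apart.

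Averaged over the arrays of each diet, ribosomal protein mRNAs stood at nearly the same level in fetal livers of HFD-fed and CD-fed dams, with the HFD levels of most genes lying between those of 2 CD arrays that differed by a median of 1.34-fold. The median difference between the diets was -0.20 without CD 1 and 0.23 without CD 2. Signal well above background was found for 82 of the 84 genes on each of the 4 arrays, and these were tested. With all 4 arrays, their log2 fold changes (HFD minus CD) had a median of 0.01, against 0.04 over the 18192 genes tested by their brightest probe. Over the 422 other genes with a level of 6 or more, where most of the family lay, it was 0.085, with 324 above 0. The fold changes of the 82 genes lay between -0.09 for Rpl28 and 0.31 for Rpl7l1, with 49 above and 33 below 0. Of them, 79 were within 0.15 of 0. The large subunit had a median of 0.01 over 50 genes and the small subunit a median of 0.02 over 32 genes.

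None of the 82 genes passed a test of the diets. With limma, 0 had a Benjamini-Hochberg adjusted p under 0.05 (0.0% of all 18192 genes), and 0 had an unadjusted p under 0.05 (2.84% of all genes). Likewise 0 passed an unadjusted p of 0.05 together with a 2-fold change in either direction, where 0.286% of all genes passed as higher and 0.478% as lower in HFD. The methods' t-test also gave 0 of the 82 at an unadjusted p under 0.05. The smallest p among them was 0.134, for Rpl7l1, and its limma adjusted p was 1.00. With 2 arrays per diet, the exact permutation test of a single gene has 0.333 as its smallest p.

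The standard error of the fold changes was 0.17 to 0.33, with a median of 0.21. The 95% interval therefore ran at the median from -0.55 to 0.58 on the log2 scale. All 82 intervals held 0 and all lay within a 2-fold change in either direction, the lowest bound being -0.95 and the highest 0.82. A change within these intervals in a single gene was thus not detectable with these arrays.

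**Figure D1:**
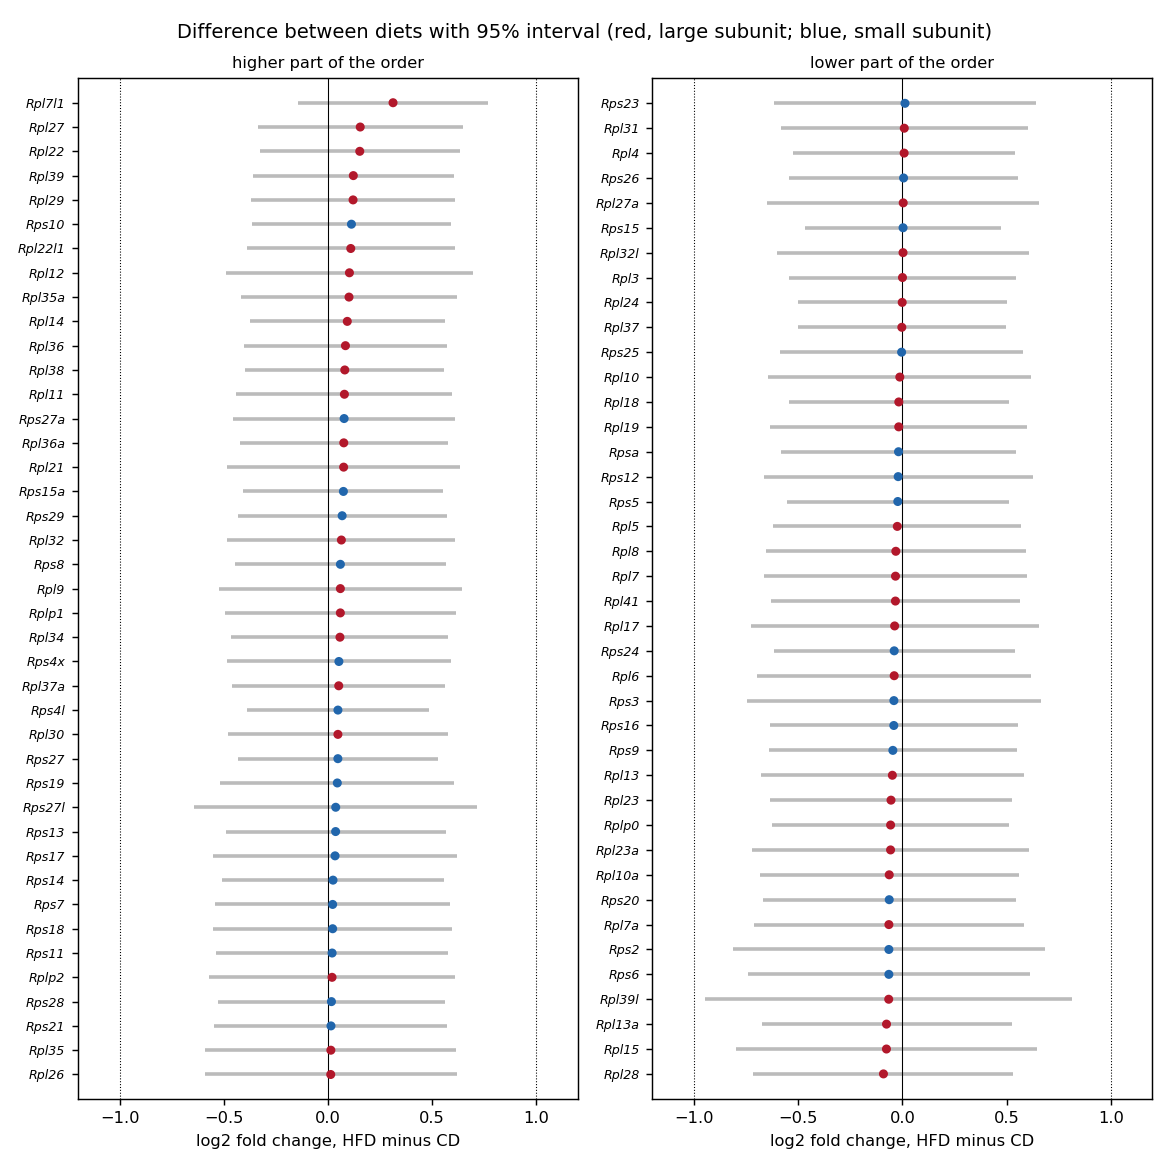
Log2 fold change (HFD minus CD) of 81 of the 82 ribosomal protein genes tested, in order, on a common axis. Points are the estimates (red, large subunit; blue, small subunit), bars the 95% intervals of limma with 2 arrays per diet, and dotted lines a 2-fold change. All intervals drawn cross 0 and none reaches the dotted lines.

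The 2 diets differed less than the 2 arrays of the control diet did. CD 2 was higher than CD 1 for 79 of the 82 genes, with a median log2 difference of 0.42 (1.34-fold), while HFD 2 minus HFD 1 had a median of 0.03. The difference between the CD arrays exceeded the difference between the diets in 81 of the 82 genes, against 71.7% of all genes. Both HFD arrays lay between the CD arrays for 74 of the 82 genes, against 39.8% of all genes. Both lay above the CD arrays for 1 gene, Rpl7l1 (23.0% of all genes), and below them for 0 (10.1% of all genes).

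Relative to each gene's own mean, the median over the 82 genes was -0.22 on CD 1, 0.20 on CD 2, -0.01 on HFD 1 and 0.03 on HFD 2. CD 1 was the lowest array for 79 genes and CD 2 the highest for 74. Without the paralogs, Rpl32l and Rpl37, the remaining 75 genes had CD 2 above CD 1 by 1.15-fold to 1.63-fold. The genes left out include all 3 in which CD 2 was not above CD 1, so the shared direction of the 75 follows from that choice. Across the same 75 genes, the HFD arrays differed by no more than 0.14 in either direction. Over all 82 genes, HFD 2 minus HFD 1 ran from -0.29 to 0.59.

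**Figure D2:**
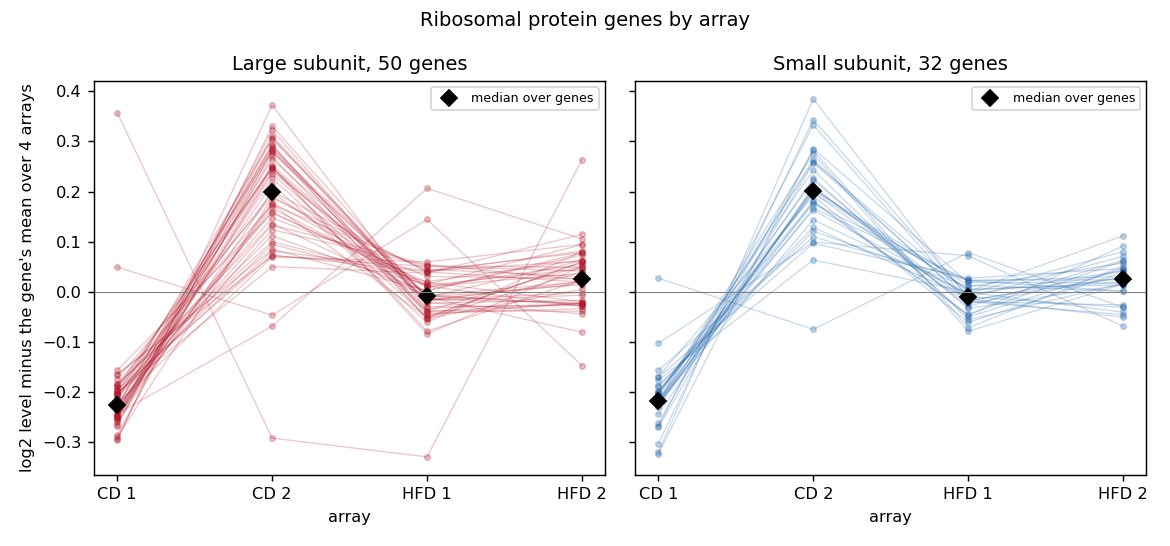
Level of each tested ribosomal protein gene on the 4 arrays, as the log2 level minus the gene's mean over the arrays, for 50 large subunit genes (left) and 32 small subunit genes (right). Lines join the values of a gene and diamonds are the medians over genes. The genes are low on CD 1 and high on CD 2, with medians of -0.22 and 0.20, and the HFD arrays lie between, at -0.01 and 0.03.

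The 6 genes with the widest gap between the CD arrays were Rps2, Rpl15, Rpl39l, Rps3, Rpl17 and Rps27l. Rps2, a protein of the mRNA entry site, had levels of 7.25 and 7.96 in the CD pair and 7.56 and 7.52 in the HFD pair. Rpl15, a large subunit protein and Diamond-Blackfan anemia gene, had 6.88 and 7.55 against 7.14 and 7.13. Rps3, which also lines the mRNA entry, had 7.42 and 8.06 against 7.71 and 7.69. In each, the HFD arrays were nearly equal and fell between the CD arrays. Rpl17, which lies at the peptide exit tunnel, had a gap of 0.62 and Rps27l one of 0.61 in the same direction, and Rpl39l one of 0.65 in the opposite direction.

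The size of this gap went with the scaling, and among other genes also with level. On the intensities before scaling, CD 2 was the dimmer array, with a median CD 2 minus CD 1 of -0.18 for the ribosomal protein genes, of which 5 of 82 were higher on CD 2, and of -0.54 over all genes. The 75th percentile differed by -0.61 in log2, and subtracting it set CD 2 higher for most ribosomal protein genes. After scaling, CD 2 minus CD 1 had a median of 0.06 over all genes, and among genes outside the family it rose with level, from 0.22 at levels of 6 to 7 through 0.33 at levels of 7 to 8 to 0.45 at levels of 8 to 9. The ribosomal protein genes in the same bins had 0.37, 0.46 and 0.43, with no steady rise. Over the 422 other genes with a level of 6 or more the median was 0.29.

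Under quantile normalization, which forces the 4 arrays to one distribution of intensities, the gap between the CD arrays was 0.03 at the median and CD 2 was higher for 49 of 82 genes. Over the 422 other genes with a level of 6 or more it was -0.05. Relative to the median of all genes, the gap of the ribosomal protein genes was 0.36 with the 75th percentile and 0.01 with quantile normalization. Normexp background correction gave 0.25. Median centring, which moved all genes to 0.23, gave the same 0.36 by construction, since both scalings subtract a constant per array. In the 75th percentile scaling, array differences at high levels cannot be told apart from different amounts of ribosomal protein mRNA between the CD livers. Quantile normalization also turned the median difference between the diets, from 0.01 with 49 genes higher to -0.02 with 33 of 82 higher. With the 75th percentile taken over detected probes, the median was -0.03 with 29 higher, and with median centring it was 0.03 with 54 higher. At these sizes the direction of the family between the diets depended on the scaling, and under these scalings too 0 of 82 genes had an unadjusted p under 0.05.

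**Figure D3:**
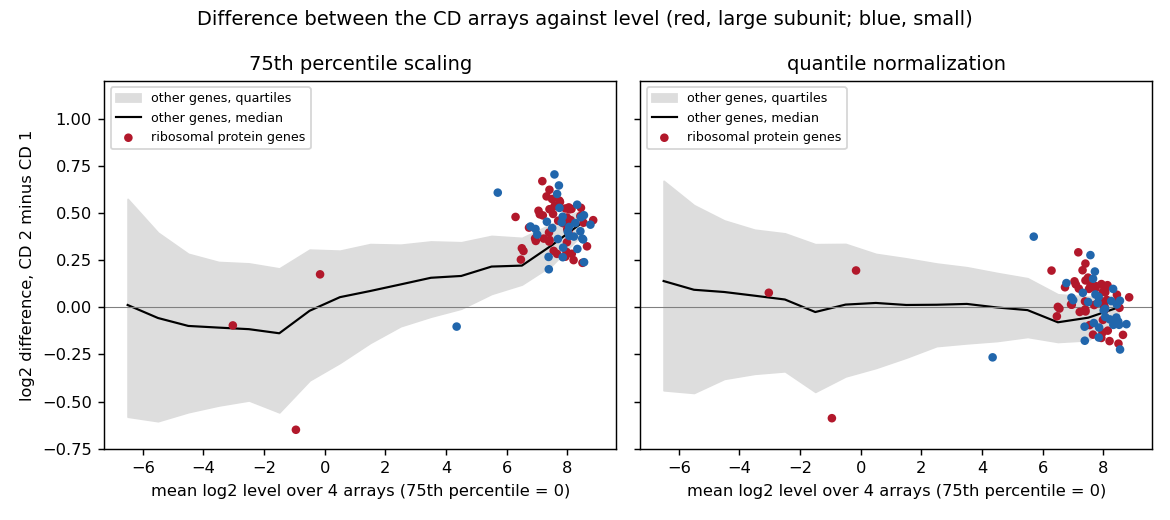
Log2 difference between the CD arrays (CD 2 minus CD 1) against mean log2 level over the 4 arrays, with the 75th percentile scaling (left) and after quantile normalization (right). Points are the 82 ribosomal protein genes (red, large subunit; blue, small), the line is the median of other genes in bins of 1 log2 unit and the band their quartiles. The median of the points is 0.42 on the left and 0.03 on the right.

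Each CD array decided the sign of the comparison. Without CD 1, 76 of the 82 genes were lower in HFD, with a median of -0.20, and 7 of them (Rpl7a, Rpl15, Rpl17, Rpl23a, Rps2, Rps3 and Rps6) had an unadjusted limma p under 0.05, where 7.69% of all genes passed as lower. No gene of the family passed as higher there, where 9.63% of all genes did. Without CD 2, 79 were higher, with a median of 0.23, and Rpl7l1 alone had an unadjusted p under 0.05 (log2 fold change 0.40), where 7.01% of all genes passed as higher. None passed as lower, where 8.08% of all genes did. The smallest limma adjusted p was 0.226 without CD 1 and 0.335 without CD 2. Without HFD 1 the median was 0.03, and without HFD 2 it was -0.01. In these fits a diet with 1 array was assumed to vary like the other diet.

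The share of signal given by the family was also within the range of the CD arrays. Of the summed intensity of the brightest probes of all genes, the 84 genes took 10.6% on CD 1 and 12% on CD 2, and 10.8% on HFD 1 and 10.95% on HFD 2. Cell type markers also differed between the CD arrays. CD 2 minus CD 1 had a median of 0.45 over the hepatoblast genes, 0.47 over the erythroid genes and 0.59 over the 10 genes of leukocytes and megakaryocytes. It was 1.45 over the 9 placenta genes tested, -0.46 over the neuron genes, -0.92 over the gonad and kidney genes and -0.70 over the skeletal muscle genes. Median levels were 6.81 to 7.49 for the hepatoblast, 5.48 to 5.92 for the erythroid and 1.91 to 2.42 for the leukocyte and megakaryocyte genes. Genes outside the family had medians of 0.22 to 0.33 at levels of 6 to 8, 0.22 at levels of 5 to 6 and 0.09 to 0.12 at levels of 1 to 3. The part of level in the marker differences, and of those differences in the ribosomal protein levels, was not tested.

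By the largest values in each direction, the higher genes in HFD were Rpl7l1, Rpl27, Rpl22, Rpl39, Rpl29 and Rps10. Rpl7l1, a paralog of Rpl7 found in the nucleolus with large subunit precursors, had levels of -0.40 and -0.22 in the CD pair and 0.05 and -0.05 in the HFD pair. It was the one gene whose diets did not overlap, with a log2 fold change of 0.31 ± 0.17 (SE, n = 2 arrays per diet) and a 95% interval from -0.14 to 0.77. Rpl27, a Diamond-Blackfan anemia gene, had 7.75 and 8.04 against 8.03 and 8.07, a log2 fold change of 0.15. Rpl22, which is needed for the development of some T cells, had 6.26 and 6.52 against 6.50 and 6.58, also 0.15. In both, CD 1 stood apart below the other 3 arrays. Rpl39 and Rpl29 had log2 fold changes of 0.12 and Rps10, at the mRNA entry, one of 0.11, with the same low CD 1.

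At the lower end stood Rpl28, Rpl15, Rpl13a, Rpl39l and Rps6, among others. Rpl28 had levels of 7.19 and 7.71 in the CD pair and 7.40 and 7.33 in the HFD pair, a log2 fold change of -0.09. Rpl15 and Rpl13a were at -0.08, and Rpl39l and Rps6 at -0.07. Rps6, the substrate of the S6 kinases downstream of mTORC1, had 7.39 and 7.99 on the CD arrays against 7.64 and 7.61 on the HFD arrays. In all of those named except Rpl39l, CD 2 stood above the other 3 arrays.

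Genes grouped by their place in the ribosome gave medians near 0. Rpl5 and Rpl11, which with 5S rRNA form the particle that binds MDM2 when ribosome assembly fails, had log2 fold changes of -0.02 and 0.08. Rpl5 had levels of 6.06 and 6.54 in the CD pair and 6.27 and 6.28 in the HFD pair. The P stalk, which recruits the factors of elongation, is made by Rplp0, Rplp1 and Rplp2 on a base that includes Rpl12. Their log2 fold changes were -0.06, 0.06, 0.02 and 0.10, in that order.

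The 8 proteins around the peptide exit tunnel, among them Rpl39, Rpl17 and Rpl35, had a median of 0.01, with 5 above 0. The 9 proteins at the mRNA entry and decoding site, among them Rps2, Rps3 and Rps10, had a median of 0.00, with 5 above 0. Rpsa, also known as the laminin receptor, had levels of 7.85 and 8.28 in the CD pair and 8.02 and 8.07 in the HFD pair, a log2 fold change of -0.02. Its brighter probe had an outlier flag on HFD 2 and was replaced by its other probe. Rps27a, which is made as a fusion with ubiquitin, had 8.27 and 8.63 against 8.49 and 8.57, a log2 fold change of 0.08.

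For the 19 Diamond-Blackfan anemia genes of the family the median was 0.02, with 15 above and 4 below 0, where 10482 of 18192 genes were above 0. Quantile normalization gave 11 above and 8 below, and without CD 1 there were 18 below and 1 above. Without CD 2 all 19 were above. Rps19, the gene most often mutated in that disease, had levels of 8.20 and 8.61 in the CD pair and 8.38 and 8.52 in the HFD pair, a log2 fold change of 0.04 with a 95% interval from -0.52 to 0.61. Rps26, another of these genes, had 7.81 and 8.21 against 7.99 and 8.04. Between the CD arrays all 19 were higher on CD 2, by a median of 0.40. The erythroid markers on the same arrays had a median log2 fold change between the diets of 0.16 over 13 genes. This median was -0.06 without CD 1 and 0.34 without CD 2, so its sign depended on the CD array. With all arrays, none of the 13 had an unadjusted limma p under 0.05, where 2.84% of all genes did.

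Some of the paralogs departed from the rest of the family in their order on the arrays. Rpl3l, which is made in muscle, and Rpl10l, which is made in the testis, were well above background on 0 of the 4 arrays, and no difference is given for them. Rpl39l, a paralog of Rpl39 best known from the testis, had levels of -0.59 and -1.24 in the CD pair and -1.28 and -0.69 in the HFD pair. It was thus high on CD 1 and HFD 2 and low on CD 2 and HFD 1, and its log2 fold change of -0.07 had the widest interval, from -0.95 to 0.82. Rpl39 itself, with 7.74 and 8.01 against 7.97 and 8.01, also had CD 1 lowest, but HFD 2 was level with CD 2.

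Rpl22l1, a paralog of Rpl22, had 6.35 and 6.65 in the CD pair and 6.57 and 6.65 in the HFD pair, close to the order of Rpl22. Rps27l, a paralog of Rps27 that is induced by p53, had 5.38 and 5.99 against 5.72 and 5.72, with a gap between the CD arrays of 0.61, where that of Rps27 was 0.27. Rps4l, which the annotation lists as a transcribed pseudogene, had 4.38 and 4.27 against 4.43 and 4.32, with CD 2 below CD 1 by 0.10. The log2 fold changes of the 5 paralogs tested had a median of 0.05, as did those of the 7 partners (Rpl3, Rpl7, Rpl10, Rpl22, Rpl39, Rps4x and Rps27). Rpl3 was at 0.00, Rpl7 at -0.03, Rpl10 at -0.01, Rps4x at 0.05 and Rps27 at 0.05. Without CD 2 the median was 0.26 for the paralogs and 0.25 for the partners, and without CD 1 it was 0.099 and -0.14. Quantile normalization gave -0.05 for the paralogs and 0.01 for the partners.

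Rpl37 was the third gene in which CD 2 was not above CD 1. Its single probe had levels of -2.98 and -3.08 in the CD pair and -2.89 and -3.18 in the HFD pair. Since levels of different probes cannot be compared, this value says nothing of how much Rpl37 mRNA is made relative to its neighbours.

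Several probes for one gene gave a check within the arrays. Of the 84 genes, 40 had 1 probe and 44 had more, up to 5, and 43 genes had several that were usable on all arrays. The log2 fold changes of the probes of a gene spanned a median of 0.06 and at most 0.33, and in 31 genes less than 0.1. The 58 probes that were not the brightest of their gene had a median log2 fold change of 0.01 and CD 2 above CD 1 in 56, by a median of 0.42.

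The exceptions were few and were chosen after their values were seen. The brightest probe of Rps24, a Diamond-Blackfan anemia gene, had levels of 8.06 and 8.50 in the CD pair and 8.20 and 8.28 in the HFD pair, while a probe designed on another of its transcripts had 7.29 and 7.12 against 7.13 and 7.08, with CD 1 highest. A dim probe of Rps15a had -3.82 and -4.09 against -4.12 and -4.21, and a dim probe of Rps27a had -4.15 and -3.84 against -3.74 and -3.66. The 2 dim probes moved in opposite directions between the diets, by -0.21 and 0.30. Processed pseudogenes are numerous in this family: the annotation holds 321 genes named -ps, of which 3 had a probe of their own, and signal from their transcripts cannot be told apart from that of the parent genes.

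**Figure D4:**
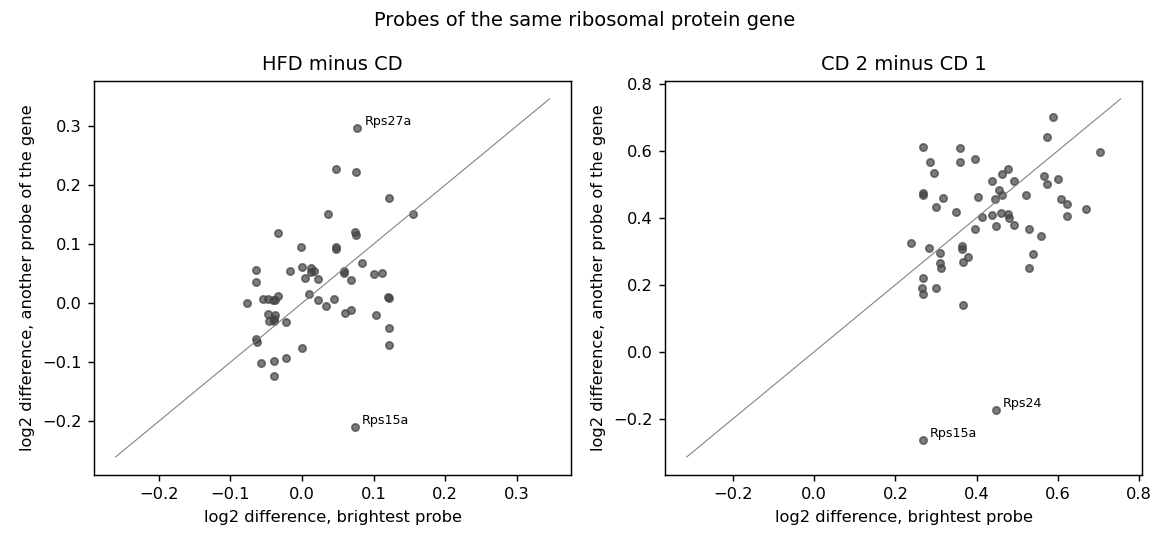
Log2 difference given by each further probe of a ribosomal protein gene (vertical) against that of the gene's brightest probe (horizontal), for the diets (left, HFD minus CD) and for the CD arrays (right, CD 2 minus CD 1). There are 58 further probes, and the line marks equal values. On the right, 56 of them lie above 0, and the probes of Rps24 and Rps15a named there lie below it.

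Ribosomal protein genes with and without a TOP start at the annotated site had similar values. The 14 genes with such a start had a median log2 fold change of 0.02 and a median CD 2 minus CD 1 of 0.43. The 47 tested genes with a window but no such annotated start had 0.00 and 0.45. This second group can hold genes whose TOP start lies a few bases from the annotated one. The comparison therefore cannot separate TOP genes from others. The ranges overlapped, with fold changes from -0.09 to 0.11 in the first group and from -0.08 to 0.31 in the second.

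The genes that make ribosomes and use them were set beside the family, from lists of named genes. Of ribosomal proteins whose symbols fall outside the rule, Rps3a1 had a log2 fold change of -0.09 and Rpl36al one of 0.19. The 63 ribosome assembly genes had a median of 0.06, with 45 above 0 and 0 with an unadjusted limma p under 0.05 (2.84% of all genes). Quantile normalization put 29 of them above 0, with 19 above without CD 1 and all 63 without CD 2. Their largest values were 0.31 for Sbds, which releases a block on subunit joining, 0.30 for Brix1 and 0.29 for Rpf2, both of large subunit assembly. The 16 genes of rRNA transcription had a median of 0.03, from Taf1c at -0.24 to Taf1a at 0.32, both subunits of the factor that selects the RNA polymerase I promoter. The median of that list was -0.09 without CD 1 and 0.16 without CD 2.

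Translation factors with TOP mRNAs had a median of 0.10 over 21 genes, 15 above 0, and the other initiation factors one of 0.06 over 23 genes, 18 above 0. Of all 18192 genes, 10482 were above 0. Without CD 1 these 2 medians were -0.05 and -0.08, and without CD 2 they were 0.22 and 0.24. Quantile normalization gave 0.03 and -0.02. Among these factors Eif3a, the largest subunit of the eIF3 complex, had 0.25, and Eif5b, which joins the subunits, 0.45. The 18 genes of mTORC1 and of TOP mRNA control had a median of -0.04, with Mtor itself at -0.29, Eif4ebp1, an inhibitor of cap-dependent initiation, at -0.28, and Larp4, which binds poly(A) tails, at 0.30. The median of that list was -0.18 without CD 1 and 0.11 without CD 2. The 15 genes of the Myc family and of the p53 response to ribosome stress had a median of -0.06, with Mycn at 0.27, Bbc3 at -0.22 and Cdkn1a, the cell cycle inhibitor induced by p53, at -0.21. The 14 genes of ribosome quality control had a median of 0.06 (-0.08 without CD 1, 0.18 without CD 2), with Pelo, which splits stalled ribosomes, at 0.37. In these lists 0 genes had an unadjusted limma p under 0.05, against 2.84% of all genes. At that share, lists of this size hold few or none.

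The mitochondrial ribosome is built from a separate set of nuclear genes, and these served as a second family of ribosomal proteins. Over its 78 genes the median was 0.11, with 63 above and 15 below 0, where 10482 of all 18192 genes were above. Other genes at levels of 3 to 6, where most of these genes lie, had medians of 0.089 to 0.14. The median of the mitochondrial set was -0.037 without CD 1, with 35 of 78 above 0, and 0.24 without CD 2, with all 78 above. Of the 78 genes 1, Mrpl50, had an unadjusted limma p under 0.05, against 2.84% of all genes, and its limma adjusted p was 1.00. Its log2 fold change was 0.50 ± 0.16 (SE, n = 2 arrays per diet), with levels of 0.66 and 0.56 in the CD pair and 1.13 and 1.098 in the HFD pair. Their median CD 2 minus CD 1 was 0.29, with CD 2 higher in 77 of 78, and their HFD 2 minus HFD 1 was -0.07. Whether the cytosolic and mitochondrial sets differed in their response to diet was not tested.

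**Figure D5:**
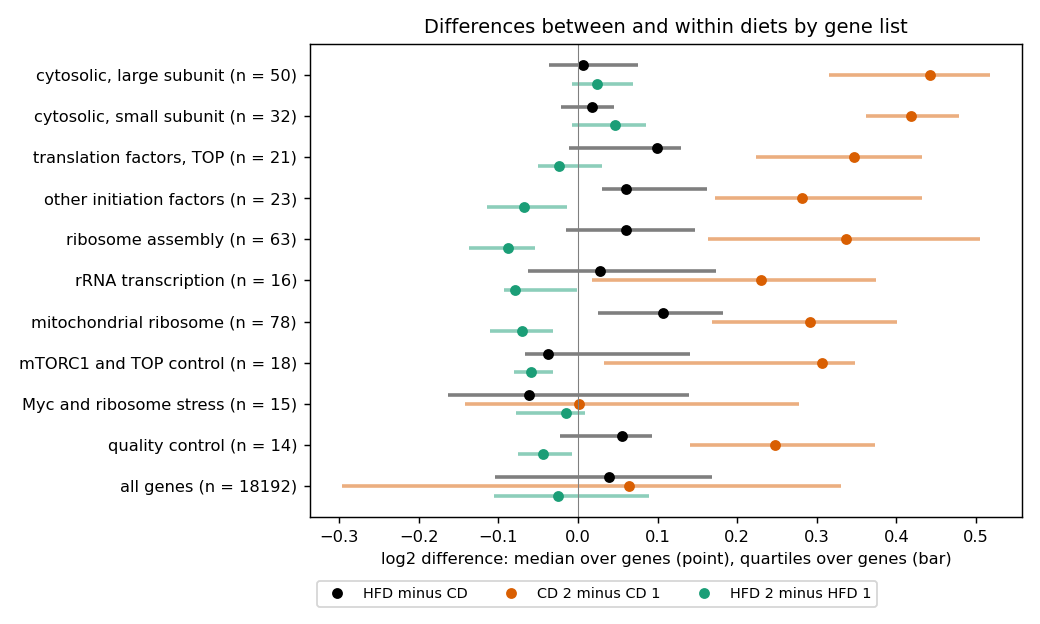
Median over genes (points) and quartiles over genes (bars) of the log2 differences HFD minus CD (black), CD 2 minus CD 1 (orange) and HFD 2 minus HFD 1 (green), for the cytosolic ribosomal proteins and related lists, with the number of genes tested in each. For the cytosolic genes the orange points lie at 0.44 and 0.42 and the black points at 0.01 and 0.02, and the black point of the mitochondrial ribosome lies at 0.11.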

How the data were processed

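Cy3-labeled cRNA of each sample had been hybridised to a mouse array by the authors, who deposited for every spot an intensity read with Agilent Feature Extraction 11.0.1.1, background-subtracted and not scaled between arrays, with outlier, saturation and detection flags, given as scores of 0 or 1. In a further table deposited by the authors, the normalized signal equals the intensity divided by 1 constant per array.

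Here the log2 intensity was averaged over the unflagged spots of a probe and the 75th percentile of each array was subtracted. Probes below the 20th percentile of any of the arrays were left out, as in the study's methods, and so were probes with a CV over 50% in both diets. The study's methods take this CV on the log scale. It was taken here on the linear scale, with the log2 CV as an alternative. In all, 41332 of 56605 probes were tested with limma 3.58.1 in R 4.3.3 (HFD minus CD, no covariates, Benjamini-Hochberg over all tested probes). Tables and plots were made in Python 3.11.15 with numpy 2.4.6, pandas 2.3.3 and matplotlib 3.10.9. The probe steps were tested on simulated data. Probes were named through RefSeq genes of GRCm38.p6, 32994 with 1 symbol. All arrays lay on 1 slide with 1 scan time, so neither could be a block, and the number of arrays limits the precision. Named genes were those past a call rule, the 6 largest rises and falls among members well above background, the 6 largest CD differences, paralogs and partners, 11 genes of known roles, and the 3 largest changes of each related list. Some genes under this rule are not reported here. Members and lists were chosen with earlier results of these data known. Protein sequences were not used here. Alternatives were quantile normalization, other percentiles and median centring, normexp with an offset of 50 (on median brightness), the deposited table, other filters, other probe choices, the methods' t-test, a replicate block and leaving out each array.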

Additional observations from a re-analysis of the deposited data

How the results depend on the processing

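The 82 ribosomal protein genes gave 0 calls at an adjusted p under 0.05 and 0 past the unadjusted p and 2-fold cutoffs under every alternative run, leave-outs included. Their count at an unadjusted p under 0.05 was 0 to 7 when each array was left out in turn, with 7 without CD 1 and 1 without CD 2, and 0 under every other alternative. The median log2 fold change of the family ran from -0.20 to 0.23 when each array was left out. Leaving out Rpl3l, Rpl10l, Rpl37 and Rps4l, chosen after seeing the data, left the median at 0.01. Since Rpl3l and Rpl10l were not tested, this took only Rpl37 and Rps4l from the 82, which could hardly move a median. Of the single genes named by rule, Rpl39 had -0.07 with its dimmest probe and Rps4l -0.06 with quantile normalization. The other 526 values for these genes moved by less than the spread between arrays of one diet. That count is no measure of stability. Leaving out an array cannot move a value by more than that spread, and the t-test and the block change no fold change. Rps2, for example, went from -0.06 to -0.42 without CD 1. Rps15a, named after its values were seen, had -0.21 with its dimmest probe against 0.07 with its brightest.

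Over all probes, 121 were higher and 197 lower past both cutoffs. These counts were 11 and 22 with normexp background correction, 373 and 478 with no filters, 29 and 80 over probes well above background on all arrays, 41 and 56 with the methods' t-test, and 190 to 843 higher and 383 to 466 lower when an array was left out. At an adjusted p under 0.05 there was 1 probe with normexp and 0 to 6 when an array was left out. The causes were not tested.

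The median of the paralogs was -0.05 with quantile normalization, with 2 of 5 above 0, and 0.070 to 0.26 when an array was left out. That of the Myc and ribosome stress list was -0.13 with quantile normalization, -0.10 with the percentile over detected probes, -0.043 with median centring, -0.078 with normexp, -0.034 with the mean over the probes of a gene, and -0.12 to 0.016 when an array was left out, the highest without CD 2.

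The labels number the arrays of each diet 1 and 2. The deviations of same-numbered arrays from their group means correlated at -0.10. With 2 arrays per diet this value is the same for both numbers. It cannot show whether same-numbered arrays shared more than a number. With the replicate number as a block, 0 of the 82 genes had an unadjusted p under 0.05, and 177 probes were higher and 258 lower past both cutoffs. With 2 arrays per diet, the median 95% interval of the ribosomal protein genes ran from -0.55 to 0.58, and differences within it are not detectable.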
